A study of Rattus norvegicus with 21 samples.

Results

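Transcripts of the nuclear-encoded mitochondrial respiratory chain were followed through the growth of a bile duct cancer in the rat liver. The set held 86 of the 14218 genes measured, chosen by symbol alone: names beginning with Nduf, Uqcr, Cox4 to Cox8 or Atp5, together with Sdha, Sdhb, Sdhc and Sdhd. By symbol it comprised 34 genes of complex I, 4 of complex II, 7 of complex III, 19 of complex IV and 16 of complex V, and 6 complex I assembly factors of the Ndufaf series. Not all of these are subunits: Cox7a2l, counted with complex IV, is an assembly factor of supercomplexes, Cox6c-ps1, also counted there, is a pseudogene, and Atp5if1, counted with complex V, is its inhibitor. Ndufa4 and its relative Ndufa4l2 were counted with complex IV, of which Ndufa4 is a subunit. Where several probe sets named the gene alone, the one brightest on average over the 21 arrays stood for it. Another 7 probe sets were annotated with several symbols and left out, so Cox7a2, Uqcrb, Ndufs5, Ndufa10, Atp5mc1 and Atp5mc2 were not measured.

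The BDEneu line consists of bile duct epithelial cells of the rat that carry the neu oncogene, the activated rat form of Erbb2. Male young adult Fischer 344 rats were inoculated with them, and the intrahepatic cholangiocarcinoma and the right liver lobe, labelled normal, of the same animals were collected at days 10, 15 and 25, with 3 rats a day. The 3 rats of day 25 each also gave a peritoneal metastasis, which made 7 groups of 3 arrays from 9 rats. Every liver came from a rat that bore a tumour, and no liver of a tumour-free rat was among the arrays. The description field of the day 25 livers names a later day than their titles and source names, and day 25 was used. The tumours came from 1 cell line in 1 inbred strain, so the replicates measure spread between rats, not between tumours of independent origin.

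The respiratory chain passes electrons from NADH through complex I, or from succinate through complex II, to coenzyme Q, complex III, cytochrome c and complex IV, where oxygen is reduced. Complexes I, III and IV pump protons across the inner mitochondrial membrane, and complex V, the ATP synthase, uses the returning protons to make ATP. Complex II is also an enzyme of the tricarboxylic acid (TCA) cycle, and hepatocytes are rich in mitochondria, which serve gluconeogenesis, urea synthesis and fat oxidation.

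Values are log2 expression levels per probe set from robust multi-array average (RMA) processing, and differences are given in log2 units. Array medians lay between 5.98 and 6.06, and 77 of the 86 genes lay above the median of every array. Hepatocyte markers averaged 12.72 to 13.18 in the livers, 8.11 to 12.14 in the tumours and 6.07 to 7.01 in the metastases, while bile duct markers averaged 5.58 to 7.39 in the livers and 10.87 to 11.62 in tumours and metastases. Markers of pancreatic acinar cells averaged above 8 on 3 arrays, namely replicate 2 of the day 15 tumours (8.67), replicate 3 of the day 25 tumours (8.43) and replicate 2 of the metastases (10.94). Markers of striated muscle averaged above 6 on 4 arrays, namely replicate 2 of the day 10 livers (6.79), replicate 1 of the day 25 tumours (7.11) and replicates 1 and 2 of the metastases (6.12 and 6.66). The counts over the 86 genes were also made without the acinar arrays and without the muscle arrays, and moves by more than 1.5 times are stated.

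Most respiratory chain genes were lower in the tumours than in the livers. Over all days, with the 9 tumours set against the 9 livers and days weighted equally, 54 of the 86 genes fell, 10 rose and 22 did not pass the test (limma, adjusted p under 0.05 over all genes). Among all 14218 genes, 37.8% were called lower and 36.8% higher, so the tissues differed throughout the transcriptome, and the members' share of lower calls was 62.8% against that background. The median difference was -0.22 over the members and -0.03 over all genes. Without the 3 arrays with acinar signal 60 fell and 9 rose, and without the 4 arrays with muscle signal 53 fell and 10 rose. Hepatocyte markers fell as well, 15 of 16 of them, by a median of 2.04 log2 units, while 7 of 7 bile duct markers and 10 of 10 myofibroblast markers rose. The part of this change of cell types in the respiratory chain differences was not tested, and in bulk tissue fewer cells of a type and less RNA per cell cannot be told apart.

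The complexes differed in extent. Among all genes 37.8% were lower and 36.8% higher, also for the counts of smaller groups of members over all days given below. Complex II had 4 of 4 genes lower, with a median of -0.61. Complex I had 28 of 34 lower and 1 higher (median -0.36), complex III 4 of 7 lower and none of its others called (median -0.18), complex V 8 of 16 lower and 2 higher (median -0.15), and complex IV 8 of 19 lower, the pseudogene among them, and 5 higher (median -0.13). The assembly factors were split, with 2 of 6 lower and 2 higher (33.3% each). Their shares and those of complex IV (42.1% lower and 26.3% higher) were nearer to all genes than those of complexes I and II. Complexes II and I kept their places in most rats: the median tumour minus liver difference of complex II lay below that of complex I in 9 of 9 rats, and that of complex I lay below those of complex V and of the common complex IV subunits in 9 of 9 and below that of complex III in 8 of 9. Complexes III, IV and V changed places from rat to rat. These per-rat medians describe the set and carry no test. The complexes also differed in brightness. Mean levels ran from 10.15 to 10.92 in complex II and from 11.05 to 12.08 in the common complex IV subunits, apart from Cox5a at 7.21. Differences of very bright probe sets are compressed, and the part of brightness in the order of the complexes was not tested.

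**Figure D1:**
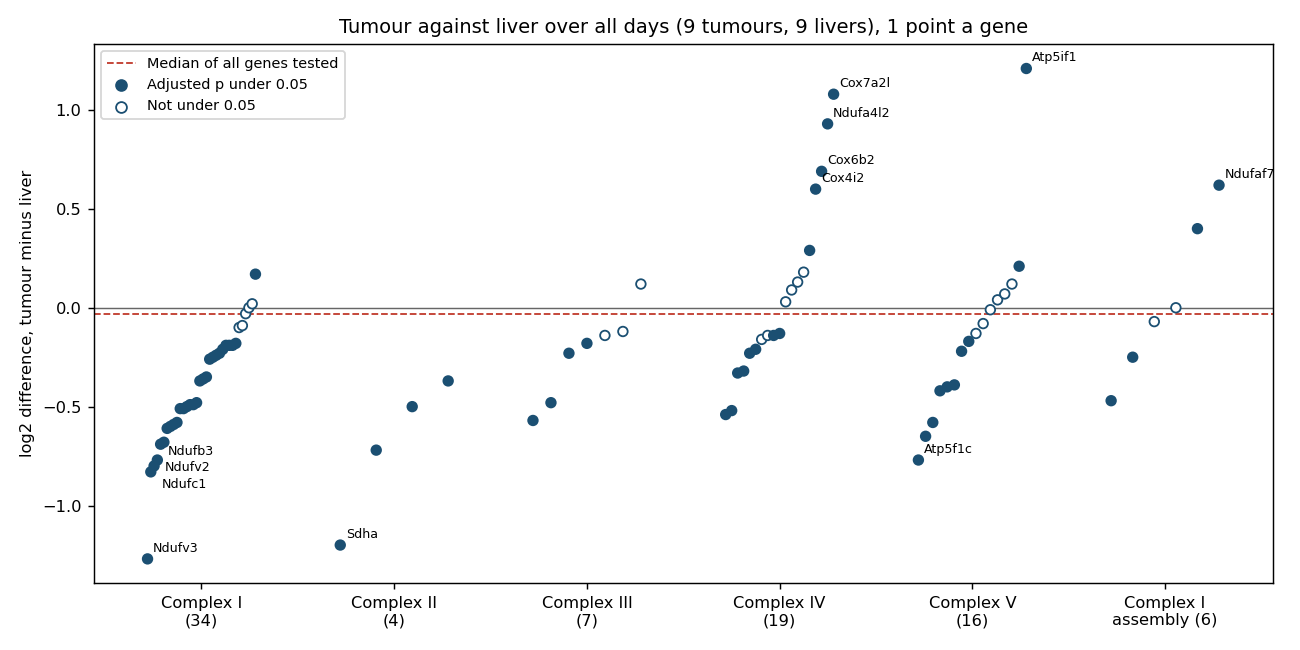
Difference between tumour and liver over all days for each of the 86 genes (vertical axis, log2 units), grouped by complex with the number of genes in brackets and ordered by size within a complex. Filled points passed the test (limma adjusted p under 0.05) and the dashed line is the median of all genes at -0.03; complexes I and II lie almost wholly below it, whereas Atp5if1, Cox7a2l and Ndufa4l2 stand near or above 1.

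Transcription of many nuclear genes for the respiratory chain is known to use the factor NRF1 and the ETS family factor GABP, so the promoters of the members were searched for the core letters of their motifs, GCGCATGCG for NRF1 and ACCGGAAG for ETS factors, on both strands. RefSeq promoters of the rat assembly GRCr8, from 250 bases before to 50 after the start site, were at hand for 78 of the 86 genes. The NRF1 core was found in 7 of the 78 (8.97%), against 2.67% of 13243 promoters of the genes tested and 1.52% of all 33469 promoters. The ETS core was found in 9 (11.5%), against 3.97% and 2.49%. A match is a description of the letters and not a bound site. Of the 9 genes with the ETS core 7 fell in tumours, 1 rose and 1 did not pass, and of the 7 with the NRF1 core 2 fell, 1 rose and 4 did not pass, where 62.8% of all members and 37.8% of all genes were called lower. The difference between the motifs was not tested. The members of the biogenesis list that encode these factors did not pass the test: Nrf1 differed by -0.11 (SE 0.07, limma adjusted p = 0.21) and Gabpa by 0.04 (SE 0.08, limma adjusted p = 0.69).

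The promoters of 3 genes are printed because they moved differently with these motifs in place: Sdhb and Atp5po fell in the tumours and Ndufaf5 rose. Capitals mark the motif, in Atp5po and Ndufaf5 the 10 letters that hold the NRF1 core once on each strand, overlapping. The first capital lies 109 bases before the start site in Sdhb (ETS core, chr5:158547684-158547983, plus strand), 59 before it in Atp5po (NRF1 core, chr11:44657434-44657733, minus strand) and 15 before it in Ndufaf5 (NRF1 core, chr3:147961362-147961661, plus strand), all in GRCr8 coordinates.
Sdhb: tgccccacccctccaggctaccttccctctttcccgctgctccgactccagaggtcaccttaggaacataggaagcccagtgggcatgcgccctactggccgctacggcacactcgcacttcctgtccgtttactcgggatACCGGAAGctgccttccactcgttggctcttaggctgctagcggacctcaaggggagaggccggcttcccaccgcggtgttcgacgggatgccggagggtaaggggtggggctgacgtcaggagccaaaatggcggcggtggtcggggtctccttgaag
Atp5po: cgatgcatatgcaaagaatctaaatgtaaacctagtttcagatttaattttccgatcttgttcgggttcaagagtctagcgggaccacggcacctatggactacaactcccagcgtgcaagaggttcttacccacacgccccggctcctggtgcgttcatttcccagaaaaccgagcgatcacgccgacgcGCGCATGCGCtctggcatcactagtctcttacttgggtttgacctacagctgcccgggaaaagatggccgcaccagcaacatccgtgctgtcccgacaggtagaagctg
Ndufaf5: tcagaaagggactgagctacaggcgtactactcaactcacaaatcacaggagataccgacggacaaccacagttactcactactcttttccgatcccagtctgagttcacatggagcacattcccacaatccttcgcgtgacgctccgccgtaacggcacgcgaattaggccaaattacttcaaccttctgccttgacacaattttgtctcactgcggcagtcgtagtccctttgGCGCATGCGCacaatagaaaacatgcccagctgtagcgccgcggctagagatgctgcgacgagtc

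In complex I, all 6 measured core subunits were lower in tumours, with a median of -0.52. Ndufv2, an iron-sulfur subunit of the NADH-oxidising module, had levels of 10.11, 10.62 and 10.97 (lowest, median and highest of 9) in tumours and 10.99, 11.34 and 11.50 in livers. The tissues did not overlap, although the highest tumour came within 0.02 of the lowest liver, and the difference was -0.80 (SE 0.09, limma adjusted p = 9.3e-07). Ndufs3 and Ndufs7, which belong to the module that hands electrons to coenzyme Q, fell by 0.68 and 0.69. Ndufs1, the largest core subunit and a carrier of iron-sulfur clusters, fell by 0.36 (SE 0.05, limma adjusted p = 4.3e-06), and Ndufv1, which binds NADH, fell by 0.24 (SE 0.06, limma adjusted p = 0.0013). For both of these the 9 tumours and 9 livers overlapped.

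The supernumerary subunits of complex I, which surround the catalytic core, gave 22 of 28 lower and 1 higher. Ndufv3, a small subunit of the NADH-oxidising module, had the largest fall of the whole set. Its levels were 10.01, 10.13 and 10.11 in the day 10 livers and 8.85, 8.81 and 8.90 in the day 10 tumours. At day 15 they were 9.66, 10.15 and 9.97 in livers and 8.52, 9.24 and 8.10 in tumours, and at day 25 they were 9.22, 9.67 and 9.88 in livers and 8.06, 8.35 and 8.55 in tumours. Groups of the same day did not overlap, and the overlap over all days came from the day 15 tumour of replicate 2 (9.24) and the day 25 liver of replicate 1 (9.22). Over all days the difference was -1.27 (SE 0.13, limma adjusted p = 1.7e-07), which is 41.5% of the liver level. A second, dimmer Ndufv3 probe set was lower in tumours as well, at group means of 7.16, 7.14 and 6.63 in livers and 6.76, 6.37 and 6.34 in tumours of days 10, 15 and 25.

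Ndufc1, a membrane-arm subunit, fell by 0.83 (SE 0.12, limma adjusted p = 9.6e-06) and Ndufb3, also of the membrane arm, by 0.77 (SE 0.07, limma adjusted p = 9.9e-08). For Ndufb3 the highest tumour, 10.95, lay below the lowest liver, 11.31. Ndufa5, a subunit of the matrix arm, was the single complex I gene called higher, at 0.17 (SE 0.07, limma adjusted p = 0.031), and this direction turned to -0.06 when arrays were centred on their gene median. Ndufb1, the uncalled complex I gene with the highest mean, differed by 0.02 (SE 0.06, limma adjusted p = 0.75) and also changed sign, to -0.21 and called, under that centring. After quantile normalization Ndufa5 and Ndufb1 differed by 0.05 and 0.04, neither called.

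Complex II was lower in all its parts. Sdha, the flavoprotein that oxidises succinate, was at 11.10, 11.06 and 11.26 in the day 10 livers and at 9.92, 9.69 and 9.86 in the day 10 tumours. At day 15 livers had 10.85, 11.08 and 10.65 and tumours 9.63, 9.98 and 9.39, and at day 25 livers had 10.50, 10.49 and 10.64 and tumours 9.29, 9.47 and 9.62. Every tumour lay below every liver, and the overall difference of -1.20 (SE 0.09, limma adjusted p = 6.4e-09) left 43.6% of the liver level. Sdhb, the iron-sulfur subunit whose promoter is printed above, ranged from 10.03 to 10.87 in tumours and from 11.00 to 11.43 in livers, again without overlap, and fell by 0.72 (SE 0.10, limma adjusted p = 6.6e-06). The membrane anchors Sdhd and Sdhc, which hold the coenzyme Q site, fell by 0.50 (SE 0.07, limma adjusted p = 6.9e-06) and 0.37 (SE 0.05, limma adjusted p = 8.8e-06), with some overlap between tissues.

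**Figure D2:**
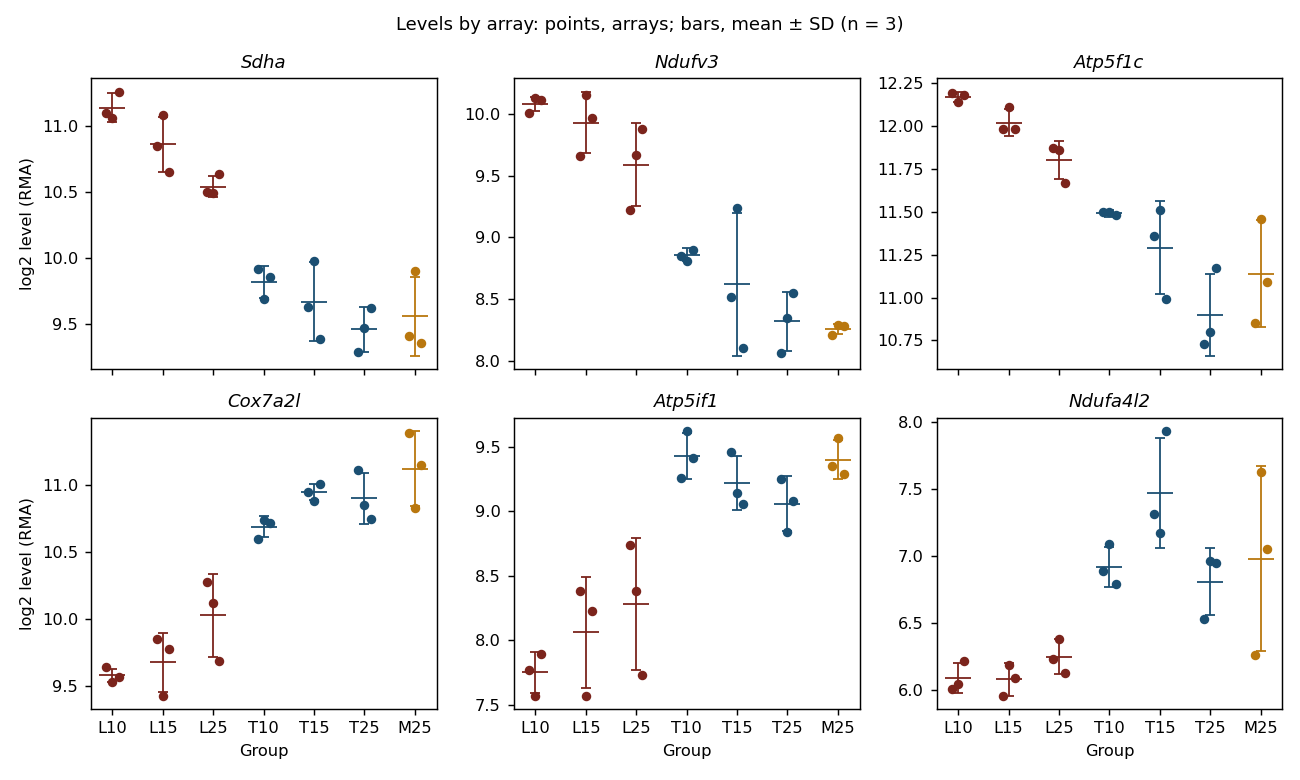
Log2 levels of 6 respiratory chain genes on every array; L, T and M are liver, tumour and metastasis and the number is the day, points are arrays, and bars are the group mean with its SD (n = 3). Sdha, Atp5f1c and, except for 1 tumour at 9.24 beside a liver at 9.22, Ndufv3 lie lower in tumours and metastases than in livers, and Cox7a2l, Atp5if1 and, except for 1 metastasis at 6.26, Ndufa4l2 lie higher.

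In complex III, Uqcrfs1, the Rieske iron-sulfur protein, had the largest difference. Its levels ran from 10.84 to 11.29 in tumours (median 11.06) and from 11.45 to 11.79 in livers (median 11.64), so the tissues did not overlap, and it fell by 0.57 (SE 0.06, limma adjusted p = 7.2e-07). Uqcrq, a small subunit, fell by 0.48 (SE 0.07, limma adjusted p = 1.6e-05), Uqcr10 by 0.23 and the core protein Uqcrc2 by 0.18. A second Uqcrc2 probe set had means of 9.12, 9.20 and 9.05 in the livers of days 10, 15 and 25. In the tumours of these days it was at 8.94, 8.86 and 9.11, so not lower at day 25. The other core protein, Uqcrc1, differed by -0.12 (SE 0.07, limma adjusted p = 0.12). Uqcrh, the hinge protein, differed by 0.12 (SE 0.06, limma adjusted p = 0.069), a direction that turned under median centring. After quantile normalization Uqcrh was called higher, at 0.17, and Uqcr10, at -0.12, was not called.

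Complex IV held genes of opposite direction. Of the 10 subunits used in most tissues 6 fell and 1 rose (median -0.18). Cox7b fell by 0.54 (SE 0.07, limma adjusted p = 1.9e-06), Cox5a by 0.52 (SE 0.14, limma adjusted p = 0.0028) and Ndufa4 by 0.33 (SE 0.06, limma adjusted p = 0.00014). The Cox5a probe set was weak, with a group mean of 7.93 ± 0.58 (SD, n = 3) in the day 10 livers and 6.88 to 7.09 in the tumour groups, and its brighter probe set carries several symbols and was not used. Cox4i1, the common isoform of a subunit that regulates the enzyme, fell only by 0.13 (SE 0.05, limma adjusted p = 0.031), with overlapping tissues. Cox6b1, which links the monomers of the complex IV dimer, was the common subunit that rose, by 0.29 (SE 0.05, limma adjusted p = 0.00015), from 10.56 to 10.97 in livers to 11.02 to 11.31 in tumours without overlap. Under median centring its difference was 0.06 and no longer called. Cox6c, the uncalled gene of complex IV with the highest mean, differed by 0.03 (SE 0.05, limma adjusted p = 0.57) and by -0.20 under that centring. After quantile normalization Cox6c differed by 0.15 and Cox6b1 by 0.33, both called, and Cox4i1 by -0.02, not called.

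Cox7a2l rose in the tumours. This gene encodes a factor, also named SCAFI, that joins complexes III and IV into supercomplexes. Its levels were 9.64, 9.53 and 9.57 in livers and 10.60, 10.74 and 10.72 in tumours at day 10. At day 15 they were 9.85, 9.43 and 9.78 in livers and 10.95, 10.88 and 11.01 in tumours, and at day 25 they were 10.28, 10.12 and 9.69 in livers and 11.11, 10.85 and 10.75 in tumours. No tumour overlapped a liver, and the difference was 1.08 (SE 0.09, limma adjusted p = 1.8e-08), or 211% of the liver level. It stayed called at 0.85 under median centring.

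The 7 complex IV isoforms of restricted tissue use gave 3 genes higher and 1 lower. Ndufa4l2, a relative of Ndufa4 known as a target of hypoxia-inducible factor, had 6.53, 6.96 and 7.93 (lowest, median and highest of 9) in tumours and 5.96, 6.13 and 6.38 in livers. The tissues did not overlap, and it rose by 0.93 (SE 0.15, limma adjusted p = 2.7e-05) while Ndufa4 fell. Cox6b2, known from testis, rose by 0.69 (SE 0.16, limma adjusted p = 8.4e-04) and Cox4i2, known from lung and as a hypoxia-responsive isoform, by 0.60 (SE 0.16, limma adjusted p = 0.0034). Both lay under or near the array medians, from 4.18 to 4.78 in livers and 4.57 to 5.92 in tumours for Cox6b2 and from 4.64 to 5.23 and 5.04 to 6.27 for Cox4i2, where signal and background were not parted. The muscle isoforms Cox6a2, Cox7a1 and Cox8b differed by -0.16, -0.14 and 0.18 (limma adjusted p = 0.31, 0.39 and 0.098), the last with a sign that turned under median centring, and their common partners Cox6a1 and Cox8a differed by 0.13 (limma adjusted p = 0.073, sign turned under median centring) and -0.23 (limma adjusted p = 0.0013). After quantile normalization Cox6a1 and Cox8b were called higher, at 0.24 and 0.25, and Cox8a, at -0.12, was not called. The dim pseudogene probe set Cox6c-ps1 was called lower, but its sequence is close to that of Cox6c and its value is uncertain.

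In complex V genes of the catalytic head, the stalk and the membrane part fell. Of the 5 subunits of the F1 head 3 fell. Atp5f1c, the gamma subunit that turns inside the head, was at 12.19, 12.14 and 12.18 in the day 10 livers and at 11.50, 11.50 and 11.48 in the day 10 tumours, and over all days it ran from 10.73 to 11.51 in tumours and from 11.67 to 12.19 in livers. The tissues did not overlap, and it fell by 0.77 (SE 0.09, limma adjusted p = 5.6e-07). The alpha and beta subunits Atp5f1a and Atp5f1b fell by 0.40 (SE 0.04, limma adjusted p = 5.5e-07) and 0.39 (SE 0.05, limma adjusted p = 1.8e-06), each without overlap. The delta and epsilon subunits Atp5f1d and Atp5f1e differed by 0.12 (limma adjusted p = 0.12) and 0.07 (limma adjusted p = 0.31). Both signs turned under median centring, Atp5f1e to -0.16 and called. After quantile normalization Atp5f1e was called higher, at 0.16.

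Of the 4 stalk subunits 3 fell. Atp5po, which confers sensitivity to oligomycin, ran from 9.79 to 10.60 in tumours and from 10.67 to 11.15 in livers and fell by 0.65 (SE 0.09, limma adjusted p = 9.6e-06). Of the 6 membrane subunits 2 fell and 1 rose. Atp5mc3, which encodes the proton-carrying c ring, fell by 0.58 (SE 0.07, limma adjusted p = 2.5e-06). Its level lay between 11.82 and 12.84 on all tumours and livers, and the 2 sister genes of the c ring, Atp5mc1 and Atp5mc2, were not measured. Atp5mk, a small membrane subunit, was called higher at 0.21 (SE 0.07, limma adjusted p = 0.0090), but it was at -0.02 under median centring. After quantile normalization it was at 0.28 and called.

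Atp5if1 had the largest rise of the set. It encodes the inhibitor that stops ATP synthase from running backwards and hydrolysing ATP. The livers had 7.77, 7.57 and 7.89 at day 10, 8.38, 7.57 and 8.23 at day 15 and 8.74, 8.38 and 7.73 at day 25, and the tumours had 9.26, 9.62 and 9.41, 9.46, 9.14 and 9.06, and 9.25, 8.84 and 9.08. Every tumour lay above every liver, the nearest being a tumour at 8.84 and a liver at 8.74, both of day 25. The difference was 1.21 (SE 0.13, limma adjusted p = 4.3e-07), or 231% of the liver level. The 2 other probe sets of Atp5if1, with group means from 4.59 to 5.97, lay under the array medians and did not show the rise: the brighter of them was at 5.97, 5.40 and 5.75 in livers and 5.62, 5.44 and 5.42 in tumours.

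Among the assembly factors of complex I, Ndufaf7 and Ndufaf5 rose and Ndufaf1 and Ndufaf3 fell. Ndufaf7, a methyltransferase that acts on a core subunit, ran from 6.31 to 7.01 in livers and from 7.08 to 7.50 in tumours. The tissues did not overlap, and it rose by 0.62 (SE 0.09, limma adjusted p = 6.6e-06). A second, dimmer Ndufaf7 probe set, under the array medians, did not show a rise of that size. Its means at days 10, 15 and 25 were 5.74, 5.63 and 5.82 in livers and 5.82, 5.94 and 5.80 in tumours. In the metastases it was at 5.91. Ndufaf5, a hydroxylase of another core subunit, ran from 6.73 to 7.31 and from 7.32 to 7.66 and rose by 0.40 (SE 0.07, limma adjusted p = 5.7e-05). Ndufaf1 fell by 0.47 (SE 0.09, limma adjusted p = 0.00014) from liver levels of 5.15 to 6.08, under or near the array medians, and Ndufaf3 by 0.25. Ndufaf4 differed by -0.07 (SE 0.10, limma adjusted p = 0.56).

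The tumour and liver differences were present at each day. At day 10, 43 members fell and 7 rose (28% and 30.4% of all genes), at day 15, 38 fell and 8 rose (23.6% and 28.2%), and at day 25, 36 fell and 5 rose (22.4% and 27.7%). When arrays were centred on their gene median, the counts at day 15 were 54 and 4. The medians over the members were -0.29, -0.21 and -0.22, against -0.03, -0.01 and -0.01 over all genes. At all 3 days 30 of the 86 genes were lower, against 14.5% of all genes, among them all 4 genes of complex II. At all 3 days 5 were higher, against 21.3% of all genes: Atp5if1, Cox6b1, Cox7a2l, Ndufaf5 and Ndufaf7.

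The differences of single genes at each day were as follows, and no change of them from day 10 to day 25 passed the test given below. Sdha differed by -1.32, -1.19 and -1.08 at days 10, 15 and 25 (SE 0.16 each), Ndufv3 by -1.23, -1.31 and -1.27 (SE 0.22 each) and Ndufb3 by -0.64, -0.75 and -0.91 (SE 0.13 each), all called at each day. Atp5if1 differed by 1.69, 1.16 and 0.77 (SE 0.23 each), also called at each day. The change of its difference from day 10 to day 25 was -0.91 (SE 0.32, limma adjusted p = 0.16) and did not pass. Ndufa4l2 differed by 0.83, 1.39 and 0.56 (SE 0.25 each) and was not called at day 25 (limma adjusted p = 0.076). Cox5a differed by -1.05 at day 10 (SE 0.24, limma adjusted p = 0.0015) but by -0.21 and -0.31 later, neither called.

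The change of the tumour and liver difference from day 10 to day 25 was called for 0 of the 86 genes (limma, 1.09% of all genes lower and 0.373% higher), and 3 lower (3.49%) and 7 higher (8.14%) had an unadjusted p under 0.05, against 10.1% and 7.57% of all genes. The lowest adjusted p was that of Ndufs1, whose difference moved by 0.43 (SE 0.11, limma adjusted p = 0.080). Its levels in livers were 10.41, 10.38 and 10.53 at day 10 and 9.99, 10.14 and 9.94 at day 25, while in tumours they were 9.94, 9.95 and 9.82 and 9.97, 9.96 and 9.81. The livers of the 2 days did not overlap and the tumours did.

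**Figure D3:**
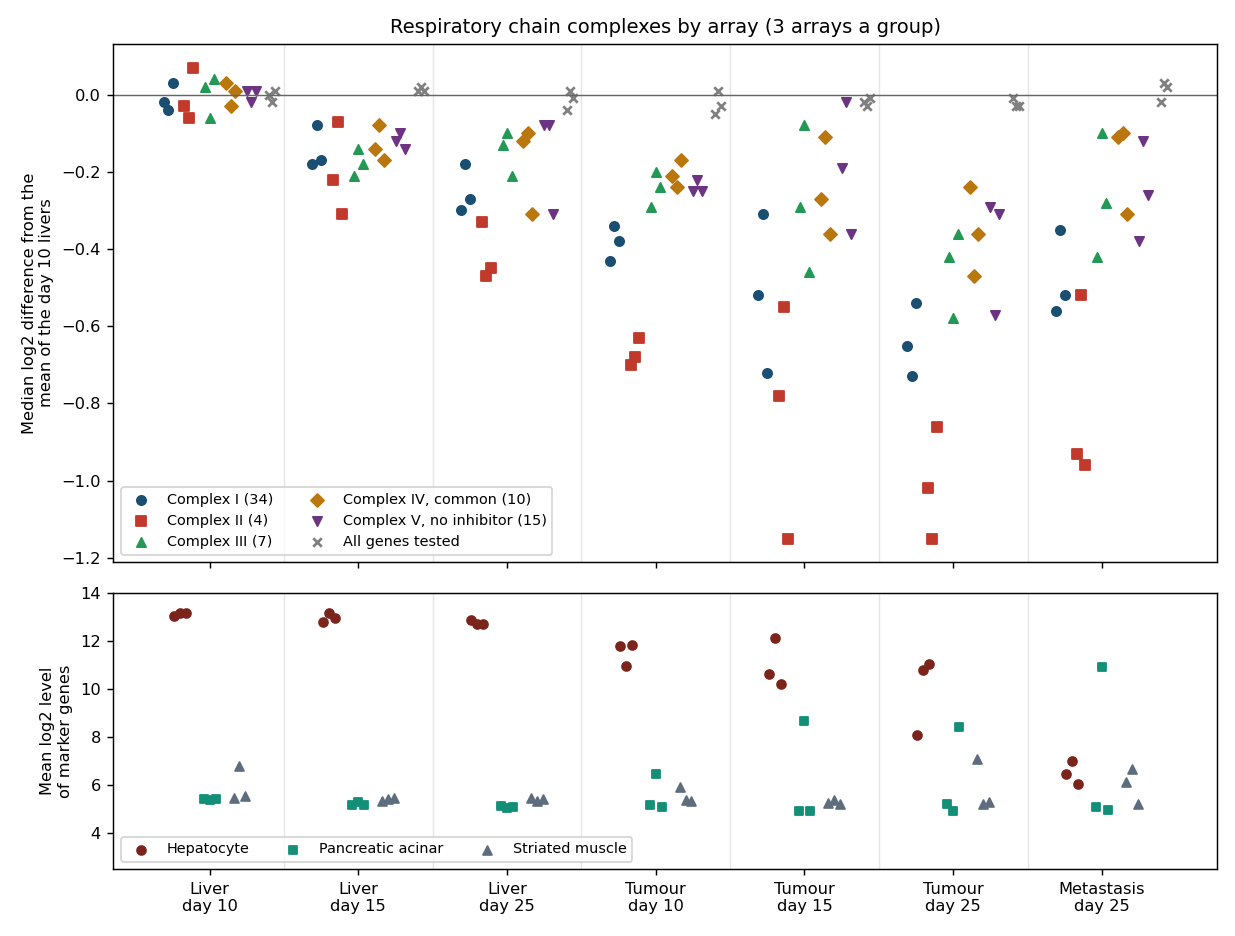
Upper panel: for each array, the median over the genes of a complex of the log2 difference from the mean of the day 10 livers (numbers of genes in brackets; crosses are all genes tested). Lower panel: the mean log2 level of marker genes of 3 other cell types on the same arrays; complexes I and II lie lowest on the tumour arrays, and the tumour of day 15 with the highest hepatocyte mean (12.14) has the smallest shifts.

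Tumours of the same day differed in the size of the shift, and its order followed that of the hepatocyte markers at day 15 but not at days 10 and 25. In the day 15 tumours, replicate 2 had the highest hepatocyte mean (12.14) and an acinar mean of 8.67, and its complex I and II medians, relative to the day 10 livers, were -0.31 and -0.55. Replicate 3, with a hepatocyte mean of 10.22 and an acinar mean of 4.95, had -0.72 and -1.15. In the day 10 tumours, replicate 2 had the lowest hepatocyte mean (10.98, against 11.80 and 11.83) but the complex I median nearest to the livers (-0.34, against -0.43 and -0.38). Its acinar mean was the highest of that day (6.48, against 5.17 and 5.11), while its complex II median (-0.68) lay below that of replicate 3 (-0.63). Replicate 1 of the day 25 tumours had the lowest hepatocyte mean of all tumours (8.11) but complex I and II medians of -0.65 and -1.02, above those of replicate 2 (-0.73 and -1.15, hepatocyte mean 10.78). Replicate 3 of that day had the highest acinar mean (8.43), the highest hepatocyte mean (11.04) and the medians nearest to the livers (-0.54 and -0.86). At each day the tumour with the highest acinar mean thus had the complex I median nearest to the livers. The part of acinar or hepatocyte signal in these orders was not tested. The median SD of a member between the rats of a group was 0.07 in the day 10 tumours and 0.18 in the day 15 tumours.

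Tumours of day 25 were set against those of day 10 to follow the members as the tumours grew. None of the 86 genes passed in limma in either direction (0.0422% of all genes lower and 0.0141% higher), while 37 had an unadjusted p under 0.05, all of them lower at day 25 (43.0%, against 9.53% of all genes lower and 7.66% higher). The median over the members was -0.21, against 0.00 over all genes, and the lowest adjusted p was 0.14. Atp5f1c, with the largest difference of a bright gene, was at 11.50, 11.50 and 11.48 at day 10 and at 10.73, 10.80 and 11.17 at day 25. These groups did not overlap, and the difference was -0.59 (SE 0.15, limma adjusted p = 0.14). The dim Cox6b2 differed by -0.62 (SE 0.27, limma adjusted p = 0.26). Hepatocyte markers averaged 10.98 to 11.83 in the day 10 tumours and 8.11 to 11.04 in those of day 25. Of these 16 markers 16 lay below 0, with a median of -1.24. In limma 0 of them were called, and 6 had an unadjusted p under 0.05, all lower. The part of hepatocytes in the differences of the members was not tested.

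This count changed when arrays with acinar signal were left out. Without those 3 arrays, of which replicate 3 of the day 25 tumours enters this comparison, 26 of the 86 genes were lower and none higher at day 25, while 4.88% of all genes were lower and 3.25% higher. They were 17 genes of complex I, 4 of complex V, 2 each of complexes II and III, and 1 of complex IV. Atp5po was then at -0.73 (SE 0.12, limma adjusted p = 0.011), Atp5f1c at -0.72 (SE 0.11, limma adjusted p = 0.0095) and Sdhb at -0.63 (SE 0.11, limma adjusted p = 0.015). Leaving out replicate 3 of the day 25 tumours alone gave 4 lower genes, with 0.612% of all genes lower. The other arrays left out, a day 15 tumour and a metastasis, enter this comparison only through the shared estimate of the spread. Replicate 3 also had the highest hepatocyte mean of the day 25 tumours (11.04, against 8.11 and 10.78). The part of acinar or hepatocyte signal in the count was not tested. The fit without the 3 arrays was chosen after seeing the data and leaves 2 tumours at day 25.

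The livers themselves moved in the same period. From day 10 to day 25, 12 of the 86 genes fell and 1 rose (3.77% and 5.33% of all genes), with a median of -0.21 against -0.01 over all genes. The fallen genes were 8 of complex I (Ndufs1, Ndufs3, Ndufs7, Ndufa6, Ndufa8, Ndufb1, Ndufb6 and Ndufb10), Sdha and Sdhd of complex II, Uqcrc2 of complex III and Atp5me of complex V, and none was of complex IV. Sdhd was at 11.42, 11.49 and 11.47 at day 10 and at 11.01, 10.88 and 10.81 at day 25, without overlap, a fall of 0.56 (SE 0.12, limma adjusted p = 0.0097). A second Sdhd probe set had group means of 10.27 and 9.76. Sdha fell by 0.60 (SE 0.16, limma adjusted p = 0.028), Ndufs3 by 0.50 (SE 0.11, limma adjusted p = 0.011) and Ndufs1 by 0.42 (SE 0.08, limma adjusted p = 0.0062).

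The gene that rose in the livers was Ndufaf4, an assembly factor of complex I, from 8.02, 7.72 and 8.03 to 9.29, 8.37 and 8.46, by 0.78 (SE 0.18, limma adjusted p = 0.014). Replicate 1 of day 25 stood above the others. Atp5if1 was higher by 0.54 (SE 0.23, limma adjusted p = 0.16) and Cox5a differed by -0.53 (SE 0.24, limma adjusted p = 0.18), and neither passed. Hepatocyte markers in these livers averaged 13.05 to 13.18 at day 10 and 12.72 to 12.89 at day 25, and 0 of 16 were called by limma (0 at an unadjusted p under 0.05). Markers of myofibroblasts averaged 6.92 to 7.96 and 7.64 to 8.65, with 2 of 10 called higher, and those of macrophages 8.42 to 8.69 and 8.84 to 9.17, with 3 of 9 called higher. The part of these cells in the liver differences was not tested.

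The liver counts leaned on single arrays. Leaving out 1 of the 6 livers at a time left 4, 3 and 5 genes lower without replicates 1, 2 and 3 of day 10. It left 6, 10 and 10 without those of day 25, and Ndufs1, Sdhd and Uqcrc2 were called in 6 of the 6 fits. The Uqcrc2 probe set used had liver means of 10.49 at day 10 and 10.11 at day 25. A second Uqcrc2 probe set was at 9.12 and 9.05 in the same livers, so the fall rests on the probe set used. Ndufs3 and Ndufaf4 were called in 5, Ndufa6, Ndufa8 and Ndufb10 in 2, Sdha, Ndufs7, Ndufb1 and Ndufb6 in 1, and Atp5me in 0. Without the arrays with muscle signal, which removes replicate 2 of the day 10 livers, 4 were lower and 0 higher, and the shares of all genes were 1.72% and 3.11%.

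**Figure D4:**
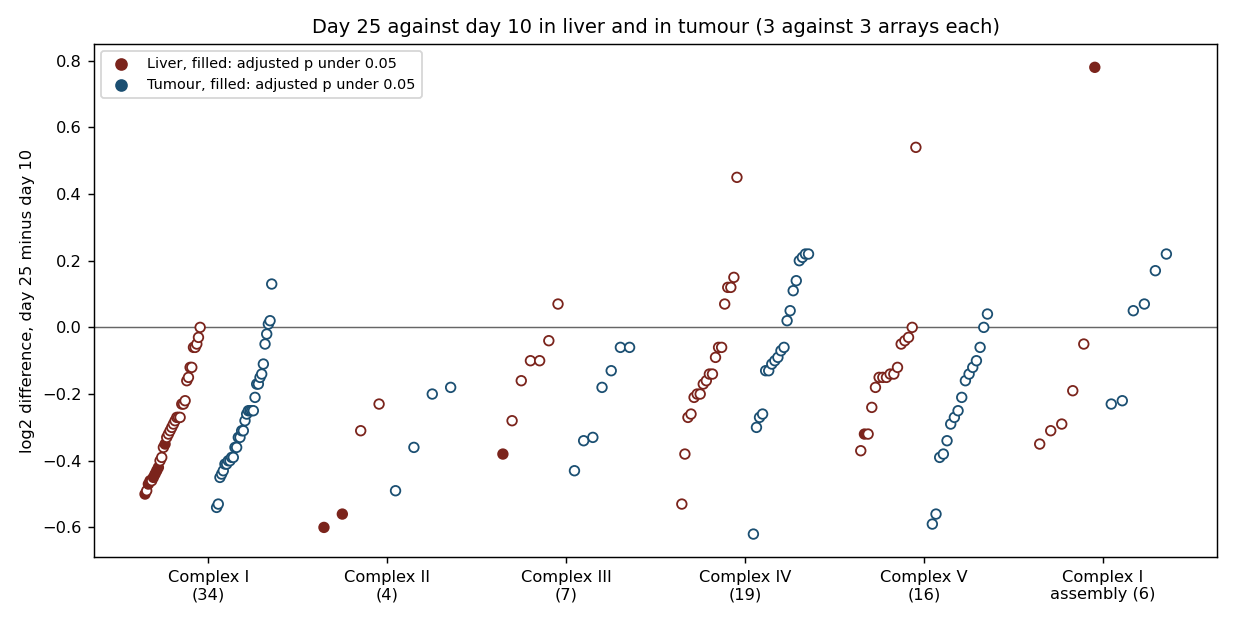
Difference between day 25 and day 10 (vertical axis, log2 units) of each of the 86 genes in livers and in tumours, grouped by complex; filled points passed the test (limma adjusted p under 0.05). In livers 12 genes were called lower and Ndufaf4 higher, and in tumours none was called although 69 of the 86 points lie below 0.

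Both tissues thus gave mostly negative differences between day 25 and day 10, 77 of the 86 genes in livers (89.5%, against 51.4% of all genes), 69 in tumours (80.2%, against 49.1%) and 65 in both (75.6%, against 28.1%). The tissues came from the same rats. Sdhd differed by -0.56 in livers and -0.18 in tumours, Ndufa8 by -0.44 and -0.53, and Atp5f1c by -0.37 and -0.59. The test of the difference between the tissues, given above, called none of them.

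The metastases were set against the livers and the tumours of the same 3 rats. Against the day 25 livers 30 of the 86 genes fell and 11 rose (23.6% and 33.4% of all genes), with a median of -0.05 against 0.03 over all genes. When arrays were centred on their gene median, 40 fell and 7 rose. Without the arrays with muscle signal, which leaves 1 metastasis, the median over the members was -0.14, against 0.04 over all genes. Complex I had 17 of 34 lower and 1 higher, complex II 2 of 4 lower, complex III 2 of 7 lower, complex V 7 of 16 lower and 3 higher, and complex IV 2 of 19 lower and 5 higher. Ndufv3 was at 8.21, 8.29 and 8.28 in the metastases, below all livers, a fall of 1.33 (SE 0.22, limma adjusted p = 8.7e-05). Sdha, at 9.41, 9.90 and 9.36, fell by 0.99 (SE 0.16, limma adjusted p = 6.4e-05), and Ndufb3 fell by 0.85 (SE 0.13, limma adjusted p = 3.1e-05).

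The genes that rose in the metastases were led by those that rose in the tumours. Atp5if1, at 9.35, 9.57 and 9.29, rose by 1.12 (SE 0.23, limma adjusted p = 0.00055), and Cox7a2l, at 11.39, 10.83 and 11.15, by 1.09 (SE 0.16, limma adjusted p = 1.9e-05). Both lay above every day 25 liver. Ndufa4l2 was uneven, at 6.26, 7.63 and 7.05, and overlapped the livers, although it was called at 0.73 (SE 0.25, limma adjusted p = 0.021). Cox6b1 rose by 0.54, Ndufaf7 by 0.65 and Ndufaf5 by 0.61. These comparisons and those of the day 25 tumours share their livers.

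In the metastases the hepatocyte markers were close to the array medians, with means of 6.46, 7.01 and 6.07, and 16 of 16 were called lower than in the livers. On these arrays, complex I medians were -0.56, -0.35 and -0.52 and complex II medians -0.93, -0.52 and -0.96 relative to the day 10 livers, against -0.65, -0.73 and -0.54 and -1.02, -1.15 and -0.86 in the tumours of the same rats. The metastasis arrays were low in hepatocyte markers, and the tumour arrays had more of them. Replicates 1 and 2 of the metastases had muscle means of 6.12 and 6.66, and replicate 2 an acinar mean of 10.94. The part of these cell types in the shift was not tested.

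Metastasis and tumour of day 25 were not told apart by the test for any of the 86 genes. In limma 0 passed in either direction (0.331% of all genes lower and 0.00703% higher), and 10 had an unadjusted p under 0.05, all higher in the metastases (11.6%, against 3.5% of all genes higher and 2.57% lower). Of the 86 genes 81 lay above 0 (94.2%, against 65.1% of all genes), with a median of 0.17 against 0.06 over all genes and a lowest adjusted p of 0.65. Within rats the median difference of complex I was 0.09, 0.35 and -0.01 in rats 7, 8 and 9, so it was largest in rat 8. The metastasis of rat 8 had the acinar mean of 10.94, and its tumour had the lowest complex I median of the day 25 tumours (-0.73). The part of either was not tested. Without the arrays with acinar signal the median over the members was 0.14, against 0.05 over all genes. Without the arrays with muscle signal, which leaves 1 metastasis, these medians were 0.11 and 0.08. When only genes above the median level were tested, they were 0.17 and 0.11, so the members were then closer to all genes. Atp5if1 differed by 0.35 (SE 0.23, limma adjusted p = 0.84), Cox7a1 by 0.34 (SE 0.26, limma adjusted p = 0.85) and Sdha by 0.10 (SE 0.16, limma adjusted p = 0.92). Cox7a1, the muscle isoform, was at 5.10, 6.62 and 5.22 in the metastases, and the array at 6.62 had a muscle marker mean of 6.66. On the arrays with higher muscle means, replicate 1 of the day 25 tumours (7.11) and replicate 2 of the day 10 livers (6.79), it was at 5.29 and 5.22.

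The neighbours of the respiratory chain in the mitochondrion were compared between tumour and liver over all days. Of all genes 37.8% were lower and 36.8% higher in this comparison. In the TCA cycle and its feeders 11 of 15 genes fell (73.3%) and 4 rose (26.7%). Pc, the pyruvate carboxylase used in gluconeogenesis, fell by 2.57 (SE 0.22, limma adjusted p = 2.9e-08) and Pdhb, of pyruvate dehydrogenase, by 1.19 (SE 0.11, limma adjusted p = 8.1e-08), whereas Cs, citrate synthase, rose by 1.33 (SE 0.08, limma adjusted p = 3e-10) and Idh2 by 0.68. Of 16 electron carriers and genes of coenzyme Q synthesis 11 fell (68.8%) and 2 rose (12.5%). Suox, which passes electrons from sulfite to cytochrome c, fell by 2.52 and Coq8a, a kinase-like protein of coenzyme Q synthesis, by 2.25, and Gpd2, the mitochondrial glycerol phosphate dehydrogenase, rose by 0.80 and Coq4 by 0.22. Cyc1, cytochrome c1 of complex III, whose symbol lies outside the rule, fell by 0.31 (SE 0.06, limma adjusted p = 0.00034).

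**Figure D5:**
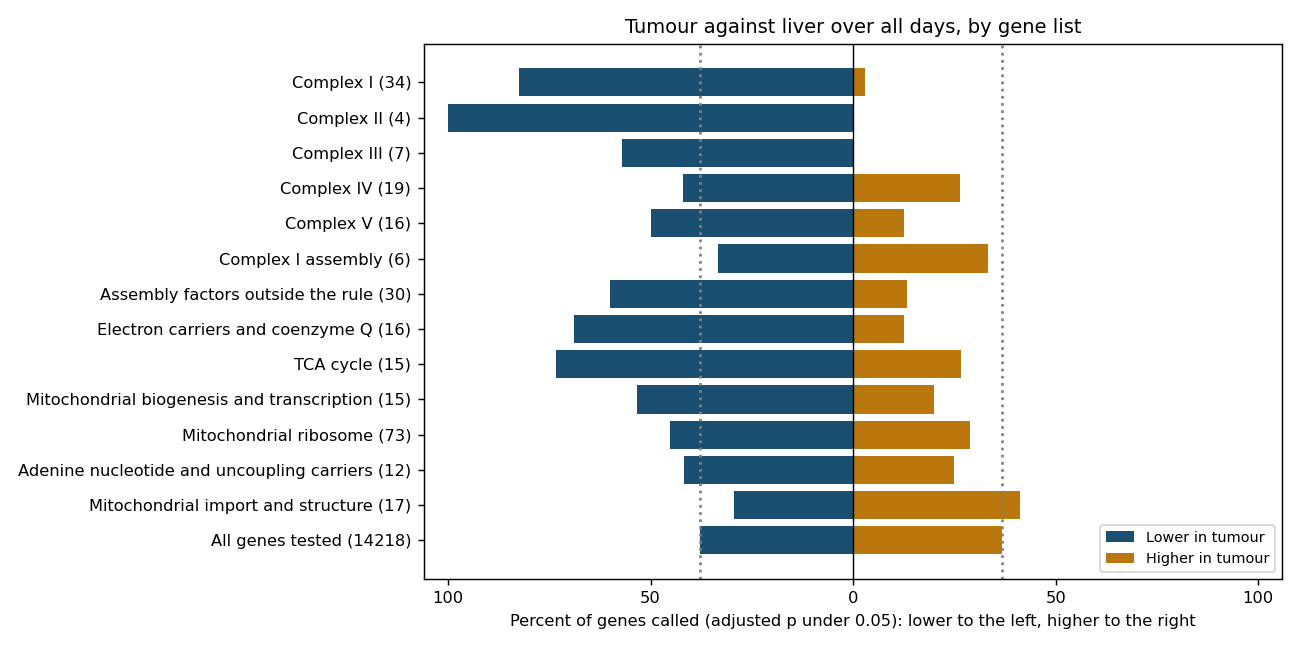
Percent of the genes of each list called lower (to the left) or higher (to the right) in tumour than in liver over all days, with the number of genes in brackets. Dotted lines mark the percentages over all genes tested, 37.8 and 36.8; complex II and complex I reach furthest to the left at 100 and 82.4 percent.

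Assembly factors outside the rule gave 18 of 30 lower and 4 higher. Ecsit and Nubpl, both of complex I assembly, fell by 1.02 and 0.84, and Cox15, of haem a synthesis, and Uqcc3, of complex III assembly, rose by 0.92 and 0.31. The mitochondrial ribosome, which makes the subunits encoded in mitochondrial DNA, gave 33 of 73 lower and 21 higher, and its largest changes were in Mrps34 and Mrpl40, which fell by 0.90 and 0.86, and in Mrpl15 and Mrps6, which rose by 2.12 and 1.91. These shares were nearer to the background than those of complexes I and II.

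Mitochondrial import and structure gave 7 of 17 genes higher (41.2%) and 5 lower (29.4%), near the 36.8% and 37.8% of all genes. Tomm20 and Tomm22, receptors of protein import, rose by 1.06 and 0.71, while Mfn2, of mitochondrial fusion, and Hspa9, the chaperone of the import motor, fell by 0.85 and 0.71. Of 15 genes of biogenesis and transcription 8 fell and 3 rose. Ppargc1a, a coactivator of mitochondrial biogenesis and of gluconeogenesis, fell by 1.84 (SE 0.25, limma adjusted p = 4.9e-06), Polg2, of the mitochondrial DNA polymerase, fell by 1.89, whereas Pprc1, a relative of Ppargc1a linked to growth, rose by 1.65 (SE 0.15, limma adjusted p = 3.1e-08) and Mterf1 by 0.65. Among 12 adenine nucleotide and uncoupling carriers 5 fell and 3 rose. Slc25a4, an isoform of the ADP/ATP carrier known from muscle, rose by 3.10 (SE 0.19, limma adjusted p = 3.1e-10) and Ucp2 by 2.07, while Slc25a5 fell by 0.21 and the dim Ucp1 by 0.35.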

How the data were processed

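Total RNA of snap-frozen rat tissue was labelled with biotin and hybridised to Affymetrix arrays, 1 per tissue and rat, per the labels' protocols. What was deposited is a table of log2 levels of 31099 probe sets, which the authors made with RMA, per the submitters' processing notes; its program and version were not given in the sources used here, and no detection calls were used. RMA aligns the distributions of the arrays, so a change shared by most transcripts would be partly removed, and differences of very bright or very dim probe sets are compressed. The number of arrays, 3 a group, limits the precision. The labels give no scan date or batch.

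Platform annotation named 1 gene symbol for 20832 probe sets, several for 436 and did not list 9831; 20764 of the first kind were matched by gene identifier to current symbols (RefSeq, assembly GRCr8), and the probe set with the highest mean was kept for each of 14218 genes. No column of per-sample values was left unused. Groups and rats were taken from the labels. All 21 arrays were fitted as 7 group means with limma 3.58.1 (lmFit and eBayes) in R 4.3.3, and p-values of each of 9 comparisons were adjusted by Benjamini-Hochberg over all genes; calls were made below 0.05, and "rose" and "fell" are used for called genes. The fit was tested on simulated data. The rat numbers in the labels pair the tissues. Deviations of same-rat arrays from their group means correlated between 0.04 and 0.578 over genes, and those of different rats between -0.625 and 0.576. The rat as a block was an alternative, as were other scalings, probe set choices, filters and leaving out each array.

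The members, the gene lists and the naming rule were chosen with earlier results of these data known. Named were, for all days, the 3 largest called changes per direction and complex and the brightest uncalled gene; elsewhere up to 5 called genes per direction and the 2 largest uncalled differences; core subunits, isoform pairs, Cox7a2l and Atp5if1 throughout; and 2 genes per direction of each related list. Cyc1, Nrf1, Gabpa, the genes of the acinar alternative and a few others in the text were named in addition. RefSeq promoters came from GRCr8. No array coordinates are given, and protein sequences were not used here.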

Additional observations from a re-analysis of the deposited data

How the results depend on the processing

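The counts of called members kept within 1.5 times of the reported ones, except as follows. Over all days 6 genes were higher when only genes above the median level were tested (76 of the 86). At day 10 that filter gave 4 higher, and centring each array on its gene median gave 3 higher and 69 lower. At day 15 the filter gave 5 higher and the centring 4, and at day 25 the centring gave 3 higher and a fit of only the groups compared 3. For metastasis against liver, 7 were higher under the centring and 7 in the fit of only the groups compared, and 17 were lower in that fit. Without arrays with muscle signal, which leaves 1 metastasis, the number of higher genes moved as well. For tumours of day 25 against day 10, 26 were lower without arrays with acinar signal. For livers of day 25 against day 10, 6 were lower after quantile normalization, 26 under the centring, 3 in the fit of only the groups compared and 4 without arrays with muscle signal, and 0 were higher in the last 2 of these. For the change of the tumour and liver difference, 1 gene was higher under the centring and 1 with the rat as a random block. Fewer genes or fewer arrays enter the filter, the fit of only the groups compared and the fits without arrays, and centring moves all genes; otherwise the cause was not tested. The centring moved the median of all genes in tumour against liver from -0.03 to -0.26 and that of the members from -0.22 to -0.45. It takes a constant from each array, so their distance, -0.19, could not change. Under settings that can change it, the distance was -0.17 after quantile normalization (-0.23 against -0.06). It was -0.42 when only genes above the median level were tested (-0.24 against 0.18). Lower genes made up 84.4% of called members over all days, 91.1% (72 lower, 7 higher) under the centring and 76.6% (49 lower, 15 higher) after quantile normalization. The centring reversed 6 named differences: Ndufa5 (-0.06), Ndufb1 (-0.21), Cox6c (-0.20), Atp5mk (-0.02) and Atp5f1e (-0.16) over all days and Cox6b1 at day 10 (-0.06). Quantile normalization moved several weak differences over all days the other way. Cox6c (0.15), Atp5f1e (0.16), Uqcrh (0.17) and Cox6a1 (0.24) were then called higher. Cox4i1 (-0.02), Cox8a (-0.12) and Uqcr10 (-0.12) were then not called. Leaving out each array in turn gave 9 to 13 higher and 50 to 56 lower over all days, 5 to 7 and 38 to 42 at day 10, 5 to 6 and 30 to 38 at day 15, 3 to 7 and 34 to 38 at day 25, 7 to 13 and 23 to 32 for metastasis against liver, 0 and 0 for metastasis against tumour, 0 and 0 to 4 for the tumour days, 0 to 3 and 3 to 10 for the liver days, and 0 and 0 to 1 for the change of the difference. Pairing the tissues by rat, as a random or as a fixed replicate block, gave 10 higher and 54 lower over all days, and apart from the 1 gene above it moved no count by more than 1.5 times. Of the single differences named, 4336 alternatives kept direction and side of the threshold, 105 lost the call, 69 gained it and 140 changed the sign of an uncalled difference. Levels under or near the array medians, those of Cox4i2 and Cox6b2 among them, have no detection calls, and 3 arrays a group leave differences within the day comparisons uncertain.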
